A study of Mus musculus with 99 samples.

Results

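Of 67 converted cells, 34 still held oncomodulin (Ocm) mRNA at 10 CPM or more and 33 lay under that level, and the other genes of the 2 sets were compared. CPM is a gene's read count divided by the cell's total count, times 1000000, and Ocm itself was used only to make the split and is left out of the results. The converted cells, named cIHC in the labels, were red fluorescent cells picked by hand from cochleae of Slc26a5-CreER/+; Rosa26Tbx2/+ mice at postnatal day 42, on a C57BL/6 background. In these mice an inducible Cre made from the prestin (Slc26a5) locus, which is active in outer hair cells, switches on ectopic Tbx2 from the Rosa26 locus, and both sets carry both alleles. The only other group was 32 outer hair cells from Slc26a5-CreER/+; Ai9/+ mice of the same strain at postnatal day 30, with a tdTomato reporter in place of Tbx2, used here as a reference level. Age and genotype differ together between that reference and the converted cells, the time of Cre induction is not given in the sources used here, and no inner hair cells picked as such were analysed here. The series held 99 cells in all, and 1 library was made per cell.

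Outer hair cells amplify sound by changing length with the motor protein prestin, while inner hair cells release glutamate onto the auditory nerve. Oncomodulin is a small calcium-binding protein of the parvalbumin family and among the most abundant proteins of mature outer hair cells. Tbx2 is a T-box transcription factor that mature inner hair cells express and outer hair cells lack, and it is required for inner hair cell identity. T-box proteins bind DNA at a short core that reads AGGTGTG on one strand.

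The split gene gave these values. Among cells with Ocm its level ran from 14.7 to 4718 CPM with a median of 133.4 CPM. Among cells without, it ran from 0 to 8.83 CPM with a median of 0.113 CPM, and 16 cells had no Ocm read. The 3 cells just inside the threshold lay at 14.7, 16.8 and 17.6 CPM and the 3 just outside at 8.83, 4.38 and 2.35 CPM. Outer hair cells lay between 17896 and 62656 CPM, so the pooled level of the cells with Ocm, 479.2 CPM, was 1.07% of the pooled outer hair cell level. "With Ocm" therefore means a remnant of the outer hair cell level in most cells, and the highest cell reached 10.5% of it.

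Since Tbx2 is the factor expressed in these cells, the stretch before the Ocm start site is shown, and beside it that of parvalbumin (Pvalb), the related calcium buffer, which also differed between the sets. Both come from RefSeq on GRCm38.p6, cover the 250 bases before the start, and are on the minus strand, at chr5:144050610-144050859 for Ocm and chr15:78206401-78206650 for Pvalb. Capitals mark the T-box core AGGTGTG or its complement on the other strand, CACACCT.
Ocm: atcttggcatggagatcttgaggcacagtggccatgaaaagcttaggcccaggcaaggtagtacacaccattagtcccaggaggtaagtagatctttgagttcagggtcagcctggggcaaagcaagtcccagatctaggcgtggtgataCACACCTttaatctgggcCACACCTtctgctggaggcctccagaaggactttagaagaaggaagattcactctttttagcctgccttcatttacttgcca
Pvalb: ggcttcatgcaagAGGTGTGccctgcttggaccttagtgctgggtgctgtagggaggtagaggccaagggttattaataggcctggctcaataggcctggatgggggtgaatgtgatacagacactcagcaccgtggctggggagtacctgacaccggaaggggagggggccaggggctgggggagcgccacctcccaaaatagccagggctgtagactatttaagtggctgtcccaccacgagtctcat
The Ocm window held 2 matches and the Pvalb window shown 1. A second Pvalb start in RefSeq, with its window at chr15:78204238-78204487, had no match. Over all 32851 windows of this length, 5.10% held 1 or more matches and 0.469% held 2 or more. Of the 24 genes named below by rank, 18 had a window, and 1 of these, Cdkn1a, held the core. The search did not mask repeats, so matches within repeated elements are counted. A match is a description of the sequence, and no binding was measured.

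The labels name no animal, so the cells of a group count as 1 sample and no test was possible. Counts were summed over the cells of a set and divided by the set's summed total to give a pooled CPM, and each difference is the log2 of that level with Ocm over that without. Intervals in brackets are at 95% and cover counting error only, since the cDNA was amplified and reads of 1 molecule cannot be told from reads of several. Spread between cells is given as the lowest, median and highest CPM, and as the share of the 1122 pairs of 1 cell with and 1 without Ocm in which the cell with Ocm was higher, with ties counted as 0.5. Total counts were 4677682 to 13792672 per cell with Ocm and 5774466 to 12462075 without, with medians of 7603328 and 8098521. Genes with reads numbered 8254.5 and 8651 per cell in the median, and 8106 and 8512 after cells were thinned to 6050000 reads, which left 33 and 31 cells. Reads of mitochondrial genes made up 4.33% of a cell's total in the median of cells with Ocm and 2.86% in cells without, against 6.68% in outer hair cells. Xist was at 10 CPM or more in 25 cells with and 30 without Ocm, and Y-linked genes were in the other 9 and 3. The sets were also unevenly spread over the numbers in the cells' titles. Numbers 1 to 12 were exactly the 12 cells with Y-linked reads, and numbers 1 to 20 stood apart by a high level of mitochondrial mRNA, with a median mt-Nd2 level of 6504 CPM against 1729 CPM in numbers 21 to 67. Cell 11 was an exception, with the lowest mt-Nd2 level of all converted cells, 248.2 CPM. Of numbers 1 to 20, 15 cells held Ocm and 5 did not, and of numbers 21 to 67, 19 did and 28 did not. What the numbers stand for is not given in the sources used here, so values within these blocks, which were set after the data were seen, are given beside some of the results.

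Tbx2, the factor that drives the conversion, was lower in the cells with Ocm. Per cell it ran from 112.7 through a median of 427.7 to 1114 CPM with Ocm, and from 128.6 through 712.4 to 2643 CPM without. All 67 cells were far above the outer hair cells, which held 3 Tbx2 counts in total, and the 2 sets overlapped over most of their ranges. Pooled Tbx2 was 488.6 CPM (486.0 to 491.3) with Ocm and 971.6 CPM (967.9 to 975.3) without, a log2 ratio of -0.99 (-1.001 to -0.982). The cell with Ocm had more Tbx2 in 23.3% of pairs. It was -0.93 in cells numbered 21 to 67 and -1.11 in cells 1 to 20. Among cells with Xist the log2 ratio was -1.04 and among cells with Y-linked reads it was -1.05. The counts do not separate the Rosa26 transgene from the endogenous Tbx2 gene, at chr11:85832551-85841948 in GENCODE M21. Across finer bins of Ocm the median of Tbx2 did not follow a single slope. It was 696.1 CPM in the 16 cells with no Ocm read, 1040 CPM in the 17 cells with Ocm reads under 10 CPM, 563.7 CPM in the 15 cells at 10 to under 100 CPM and 312.0 CPM in the 19 cells at 100 CPM or more. The lowest median was that of the cells with the most Ocm and the highest that of the cells with a few reads of it, with the cells without any read between. Splitting the cells by any Ocm read against none took the log2 ratio of Tbx2 to -0.38.

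**Figure D1:**
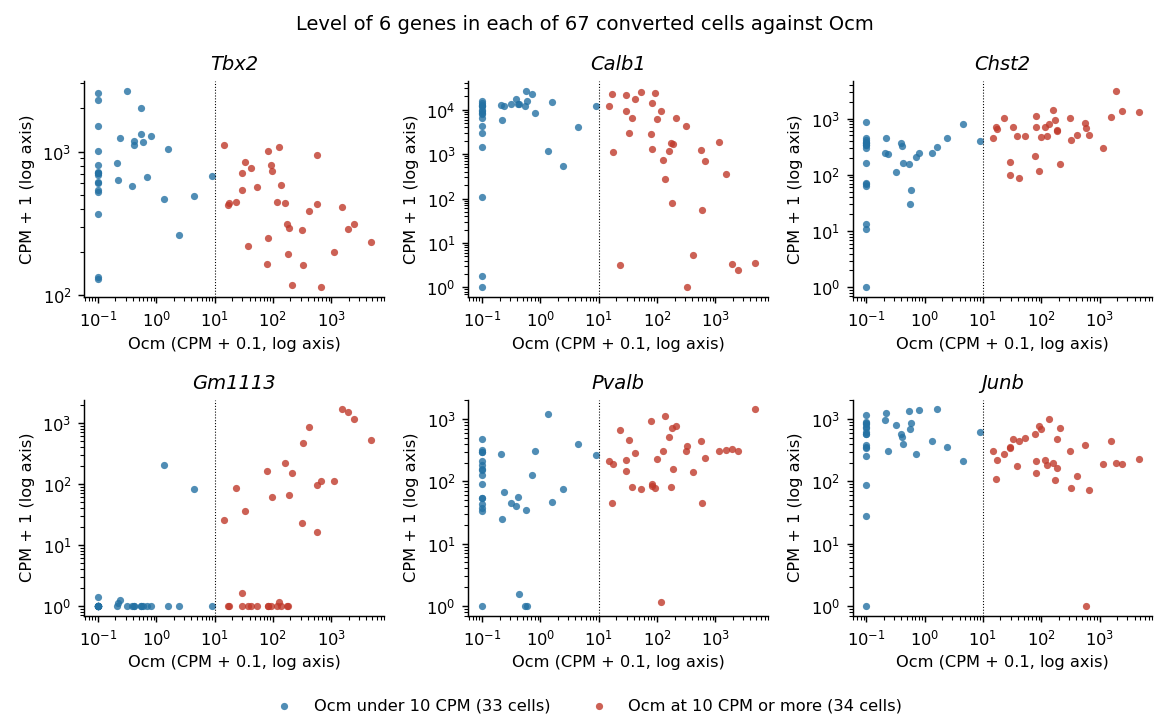
Levels of 6 genes (CPM + 1, log axis) against Ocm (CPM + 0.1, log axis) in each of the 67 converted cells, 1 point per cell, with a dotted line at the 10 CPM split. Tbx2, Calb1 and Junb points tend to lie lower to the right of the line, Chst2, Gm1113 and Pvalb points higher, with overlap of the sets in every panel.

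The plot of 6 genes by Ocm level shows the shape behind these medians: Tbx2 spans a wide band at low Ocm and a narrower, lower band at the right. The 5 cells at 1000 CPM of Ocm or more held Tbx2 between 199.8 and 412.3 CPM.

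Other marker genes of outer hair cells showed no common shift of the size of 2-fold between the sets. These were 15 genes of the electromotile, efferent and structural equipment of the cell, of which 12 had reads enough for a ratio. Of the 12, 8 were higher and 4 lower in cells with Ocm, with a median log2 ratio of 0.12, against -0.06 over the 9737 genes with 10 pooled CPM or more in 1 or both sets. Their summed level was 1073 CPM with Ocm and 1030 CPM without, against 12682 CPM in outer hair cells. A cell with Ocm had 5 of the 15 at 10 CPM or more in the median and a cell without had 4, with 3 to 8 in both sets and 11 to 15 in outer hair cells. Prestin (Slc26a5), the motor protein, had 58 counts in 1 cell with Ocm and 107 counts in 6 cells without, pooled levels of 0.21 and 0.39 CPM against 2080 CPM in outer hair cells. The cell with Ocm held 5.82 CPM and the highest cell without 13.3 CPM, while the other 5 cells without lay between 0.101 and 0.243 CPM. Prestin mRNA was thus close to absent from the reads of both sets. Ikzf2, the transcription factor Helios that maintains the outer hair cell programme, was at 10.2 CPM with Ocm and 22.9 CPM without, a log2 ratio of -1.17, and reached 10 CPM in 4 and 13 cells. Within the blocks Ikzf2 was under 2-fold, at -0.81 in cells numbered 21 to 67 and -0.93 in cells 1 to 20. Its exons overlap those of Gm29114. Lbh, a transcription cofactor of outer hair cells, had reads in 3 cells with Ocm and 1 without, at 4.73 and 1.34 pooled CPM against 1365 CPM in outer hair cells.

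The efferent synapse genes gave a split picture. Chrna9, a subunit of the nicotinic receptor that receives the efferent input, was at 217.5 CPM with Ocm and 229.8 CPM without (log2 ratio -0.08). Its partner Chrna10 was at 14.97 and 2.40 CPM (2.64), but 35.96% of its counts with Ocm came from 1 cell and its exons overlap those of Art1, so reads of the 2 genes may be mixed. Kcnn2, the calcium-activated potassium channel SK2 of the same synapse, was at 35.8 and 32.5 CPM (0.14). The calcium-binding protein sorcin (Sri) was at 516.3 and 502.6 CPM (0.04), Strip2 at 217.3 and 202.8 CPM (0.10), and the water channel Aqp11 at 47.7 and 34.8 CPM (0.45). In these 5 genes other than Chrna10 the sets differed by less than the spread of cells within either. Lmod3, an actin nucleator, had 1320 counts in 2 cells with Ocm and none without, at least 8.79 on the log2 scale against a floor of 3 counts over the set. C1ql1 and Necab2 had no read in either set, against 378.8 and 218.3 CPM in outer hair cells, Elovl2 had 1 count in all, and the phospholipid flippase Atp8b1 had none with Ocm and 8 without.

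**Figure D2:**
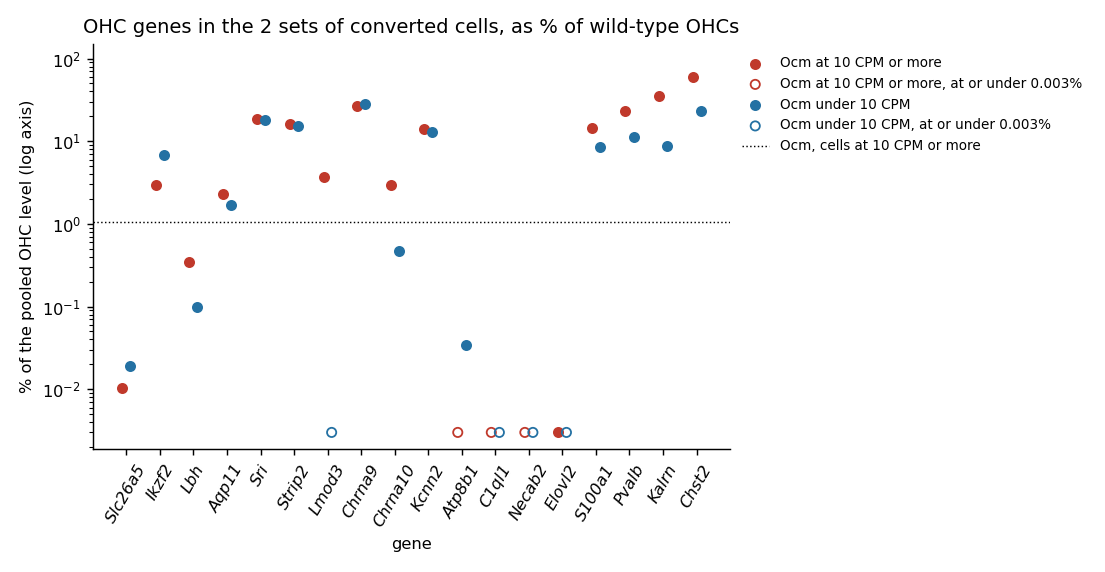
Pooled level of outer hair cell genes as a percent of the pooled outer hair cell level (log axis) in the 34 cells with and the 33 cells without Ocm, with a dotted line at 1.07%, where Ocm itself stood in the cells with it. Open circles mark values at or under 0.003%. Slc26a5 lies far below the line in both sets, and Kalrn and Chst2 show the widest gaps between the sets among the plotted genes above it in both sets.

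As the plot of percent of the outer hair cell level shows, prestin stood at 0.0103% and 0.0189% of its outer hair cell level, below Ocm at 1.07%, while Sri, Strip2 and Chrna9 stood at 18.4%, 16.1% and 26.4% in the cells with Ocm. The cell with the most Ocm, cell 22, had no read of Slc26a5, Ikzf2, C1ql1 or Necab2. The same cell held S100a1, a calcium-binding protein of hair cells, at 93.6% of the outer hair cell level, Lmod3 at 40.6%, Chrna10 at 39.6% and Lbh at 6.73%. All 5 cells at 1000 CPM of Ocm or more had no read of Slc26a5 or Ikzf2.

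A wider set of outer hair cell genes was higher with Ocm. It holds the 86 genes with 50 pooled CPM or more in outer hair cells, reads in 75% or more of them, and a pooled level in all converted cells at least 8-fold lower. This rule used converted cells of both sets together and sets no direction between them. Of the 79 with a ratio, 57 were higher and 22 lower in cells with Ocm, with a median log2 ratio of 0.67. Of the 51 at 10 pooled CPM or more in 1 or both sets, 40 were higher, where 44.5% of all genes at that level were higher. At 2-fold or more, 31 (39.2%) were higher and 8 (10.13%) lower, against 19.8% and 22.7% of all 21915 genes with a ratio. The summed level of the 86 was 1082 CPM in the lowest, 1887 in the median and 8263 in the highest cell with Ocm, and 624.7, 1482 and 3014 CPM without. Outer hair cells lay at 28737 to 44459 CPM, so both sets were far below them, and the sets overlapped. Cells with Ocm were higher in 72.4% of pairs and had 21.5 of the 86 genes at 10 CPM or more in the median, against 17. In the median over these genes, cells with Ocm held 6.96% of the outer hair cell level and cells without 3.31%. In cells numbered 21 to 67 the median log2 ratio was 0.55 and in cells 1 to 20 it was 0.42. Without cell 22 it was 0.59 and without the 5 cells at 1000 CPM or more it was 0.53.

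Of the members with the highest level in cells with Ocm, 4 are described, and they differed among themselves. S100a1 was at 687.4 and 408.3 pooled CPM with and without Ocm (log2 ratio 0.75), with medians of 481.2 and 135.2 CPM per cell. Its median was 450.9 CPM in cells with no Ocm read and 42.2 CPM in cells with reads under 10 CPM, so the low values lay in the latter, and splitting by any read against none turned the ratio to -0.29. Sh3gl3, an endophilin of membrane trafficking, was at 76.2 and 54.8 CPM (0.47). Sall1, a zinc finger transcription factor, was at 75.8 and 65.2 CPM (0.22), and Lpin2, a phosphatidate phosphatase, at 152.3 and 174.8 CPM (-0.20). By Ocm bin the median of the set's sum was 1707 CPM with no Ocm read, 1334 CPM with reads under 10 CPM, 1652 CPM at 10 to under 100 CPM and 2800 CPM at 100 CPM or more. The higher sums lay in the cells with the most Ocm, and cells with no Ocm read were not the lowest. S100a1 is a large part of this sum and moved alike, with medians of 450.9, 42.2, 401.5 and 709.0 CPM over the same bins. In cell 22 it made up 4449 of the 8263 CPM. The sum without S100a1 was not computed.

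Genes of inner hair cells were near equal in both sets. Of 10 such genes, 5 were higher and 5 lower with Ocm, none at 2-fold or more, with a median log2 ratio of 0.06. Slc17a8, the vesicular glutamate transporter VGLUT3, ran from 580.6 through a median of 1219 to 2979 CPM with Ocm and from 419.0 through 1042 to 1867 CPM without. Its log2 ratio was 0.24, and the sets overlapped almost entirely. Otof, the calcium sensor of vesicle release, was at 3111 and 2802 pooled CPM (0.15), and the calcium-binding protein Cabp2 at 2619 and 2666 CPM (-0.03). Every cell of both sets held Slc17a8 and Otof at 10 CPM or more. The genes of the list furthest down were Rprm, a cell cycle inhibitor (150.7 and 260.0 CPM, -0.79), Shtn1, a regulator of axon outgrowth (202.0 and 317.8 CPM, -0.65), and Fgf8, a signalling ligand of inner hair cells (9.52 and 14.2 CPM, -0.57). Without the 5 cells at 1000 CPM of Ocm or more the list's median was -0.07, a change of sign.

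The genes the converted cells had gained, taken as a set by the converse rule, were lower with Ocm in the sum. Of 168 such genes, Tbx2 among them, 52 were higher and 116 lower, with a median log2 ratio of -0.23, and 2 (1.19%) and 5 (2.98%) were past 2-fold, near or below the 1.6% and 2.16% of all genes at 50 pooled CPM or more and the 5.12% and 7.45% at 10. At any size, 44.5% of all genes at 10 pooled CPM or more were higher and 55.5% lower. In cells numbered 21 to 67 the median was -0.22 and in cells 1 to 20 it was -0.060. Their summed level was 19723, 37597 and 72296 CPM in the lowest, median and highest cell with Ocm and 28751, 52084 and 74079 CPM without. By Ocm bin its median was 49828 CPM with no Ocm read, 54640 CPM under 10 CPM, 50191 CPM at 10 to under 100 CPM and 31094 CPM at 100 CPM or more. The lower sums thus lay in the 19 cells with the most Ocm. Calb1, described below, is one of the 168 and among the most abundant. Its own median was 9138 CPM at 10 to under 100 CPM and 686.3 CPM at 100 CPM or more. The sum therefore holds part of the Calb1 difference, and the sum without it was not computed. The 2 genes past 2-fold upward were Col27a1, a fibrillar collagen (494.8 and 181.9 CPM, 1.44), and Sema5b, a guidance semaphorin (189.4 and 72.7 CPM, 1.38). The 5 past 2-fold downward were Gm13394 (95.9 and 276.6 CPM, -1.53), Id3, an inhibitor of helix-loop-helix factors (203.1 and 501.0 CPM, -1.30), Shisa2 (53.8 and 129.1 CPM, -1.26), Il17re (44.9 and 98.6 CPM, -1.14) and Tnfaip1 (50.4 and 107.5 CPM, -1.09). These 7 were picked out after their values were seen. Of the 5, Gm13394 and Il17re turned round in cells with Y-linked reads (1.24 and 0.60), and Shisa2 and Tnfaip1 did so for any Ocm read against none (0.24 and 0.19). Id3 kept its direction but was under 2-fold in both blocks, at -0.96 in cells numbered 21 to 67 and -0.57 in cells 1 to 20. Igfbp5, a binding protein of insulin-like growth factors, was at 1535 and 2101 CPM (-0.45), Atp2a3, a calcium pump of the endoplasmic reticulum, at 1247 and 1373 CPM (-0.14), and Mlf1 at 1036 and 1209 CPM (-0.22).

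**Figure D3:**
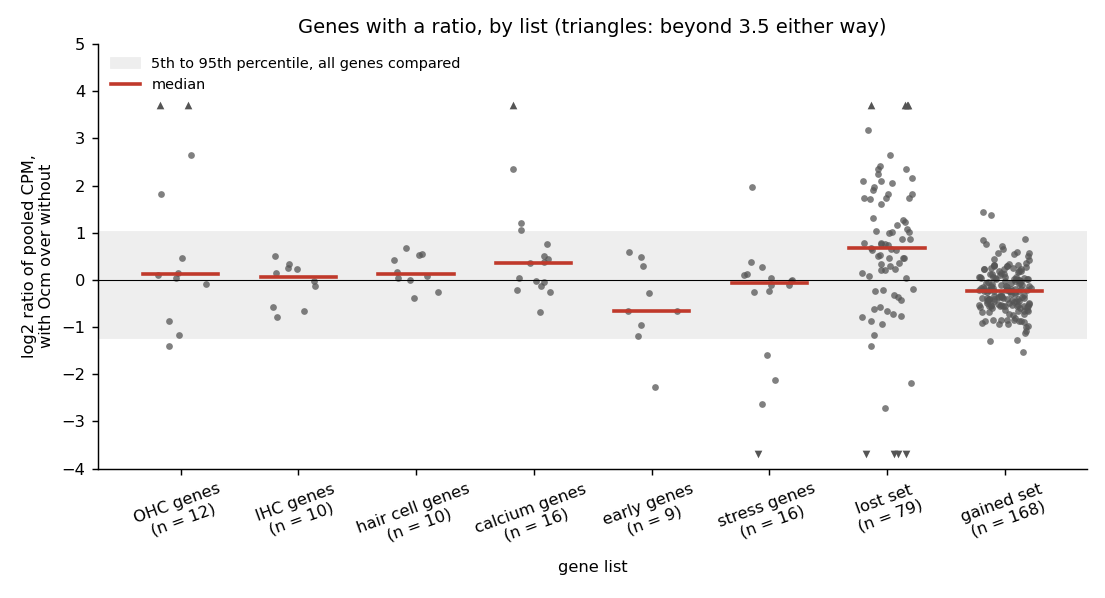
Log2 ratio of pooled CPM, cells with Ocm over cells without, for each gene with a ratio, by gene list, with 1 point per gene, red bars at the medians and a grey band from -1.23 to 1.01, the 5th to the 95th percentile of the genes at 10 pooled CPM or more. Triangles mark genes beyond 3.5 either way, including bounds. Of the 8 lists drawn, which leave out markers of other cell types, the median is highest in the set lost from outer hair cells (0.67) and lowest in the early genes (-0.65).

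Calb1 (calbindin), a calcium buffer that converted cells gain, was low in many cells with Ocm. It ran from 0 through a median of 1719 to 25092 CPM in cells with Ocm and from 0 through 11899 to 26542 CPM in cells without. The sets shared the same range, but 12 of 34 cells with Ocm lay under 1000 CPM against 4 of 33 without. The pooled levels were 6378 and 10233 CPM, a log2 ratio of -0.68, and outer hair cells stood at 383.4 CPM. In cells numbered 21 to 67 the medians were 2866 and 12066 CPM, but in cells 1 to 20 they were 1093 CPM with Ocm and 547.8 CPM in the 5 cells without, so the lower median with Ocm was not seen there. By Ocm bin the median was 8168 CPM with no Ocm read, 13044 CPM under 10 CPM, 9138 CPM at 10 to under 100 CPM and 686.3 CPM at 100 CPM or more. Under 100 CPM lay 7 of the 19 cells with Ocm at 100 CPM or more, 1 of 15 at 10 to under 100 CPM and 2 of 33 under 10 CPM.

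Other calcium buffers and sensors were mostly higher with Ocm. Of the 18 genes of calcium buffering, sensing and transport, 16 had a ratio, 10 of them higher and 6 lower, with a median of 0.37 and 4 (25.0%) at 2-fold or more, all of them higher, against 19.8% of all genes with a ratio. Among the 14 at 10 pooled CPM or more in 1 or both sets, 3 (21.4%) were higher by that much, against 5.12% of genes at that level. At any size, 9 of these 14 were higher, against 44.5% of genes at that level. Pvalb, parvalbumin, ran from 0.14 through 259.9 to 1439 CPM with Ocm and from 0 through 74.2 to 1215 CPM without. Its pooled levels were 335.2 and 161.3 CPM (log2 ratio 1.06), against 1429 CPM in outer hair cells, and the cell with Ocm was higher in 73.5% of pairs. The ratio was 1.29 in cells numbered 21 to 67 and 0.84 in cells 1 to 20. Pvalb and Calb1 thus differed in opposite directions. Calb2, calretinin, was at 4741 and 3320 CPM (0.51), and the calmodulin gene Calm2 at 11758 and 8693 CPM (0.44). Another calmodulin gene, Calm3, was at 393.1 and 457.6 CPM (-0.22). Among the rarer genes, the plasma membrane pump Atp2b2 was at 24.2 and 4.74 CPM (2.35), with 45.999% of its counts with Ocm in cell 22, and Atp2b1 at 704.1 and 837.9 CPM (-0.25). The calcium sensor Cabp1 was at 18.7 and 8.05 CPM (1.22), and the mitochondrial exchanger Slc8b1 had 862 counts in 3 cells with Ocm and 20 counts in 2 cells without (5.44, and 0.39 for the split at 100 CPM).

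Genes shared by all hair cells differed little. Of 10, 7 were higher and 3 lower with Ocm, none at 2-fold or more, with a median log2 ratio of 0.13. The myosin motors Myo6 and Myo7a were at 1372 and 863.3 CPM (0.67) and 750.1 and 563.9 CPM (0.41), Lhfpl5 of the transduction complex at 1422 and 972.5 CPM (0.55), and the transcription factor Gfi1 at 74.0 and 51.6 CPM (0.52). The transduction channel gene Tmc1 was at 1106 and 1077 CPM (0.04) and its partner Cib2 at 4371 and 4372 CPM (-0.00). Ptprq, a receptor phosphatase of the hair bundle, was at 641 and 833.7 CPM (-0.38), lower in the cell with Ocm in most pairs (28.8% higher).

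Over all genes, 499 of the 9737 with 10 pooled CPM or more (5.12%) were at 2-fold or more higher with Ocm and 725 (7.45%) lower. At any size, 4333 of the 9737 (44.5%) were higher and 5404 (55.5%) lower. Among the 4622 genes at 50 pooled CPM or more the shares at 2-fold or more were 1.6% and 2.16%. The 8 highest ratios, among genes at 50 pooled CPM or more and at 10 CPM in 50% or more of the cells of the higher set, were led by Gm1113. Its pooled level was 226.8 CPM with Ocm and 8.66 CPM without, a log2 ratio of 4.71 (4.65 to 4.77), and outer hair cells had no count of it. It reached 10 CPM in 19 of 34 cells with Ocm (55.9%) and 2 of 33 without (6.06%), and its highest cells lay at 1669 and 200.9 CPM. All 5 cells at 1000 CPM of Ocm or more held it, at 110.0 CPM or more. In cells numbered 21 to 67 it reached 10 CPM in 10 of 19 cells with Ocm and 2 of 28 without, and in cells 1 to 20 in 9 of 15 and 0 of 5. After thinning, its share of cells with reads was 60.6% and 16.1%, against 61.8% and 15.2% before. Gm1113 is a protein-coding gene of chromosome 9 in GENCODE M21, at 35509222 to 35518269 on the minus strand, and its 3′ end lies 1569 bases from that of Cdon, a cell surface co-receptor of hedgehog signalling, on the plus strand. Cdon, looked at for that position after its values were seen, was at 37.4 and 4.61 CPM (3.02), with 4.56 in cells numbered 21 to 67 and -0.21 in cells 1 to 20. Both genes reached 10 CPM in 14 cells with Ocm, Gm1113 alone in 5, Cdon alone in 1 and neither in 14. Without Ocm, 1 cell held both, 1 held Gm1113 alone, 2 held Cdon alone and 29 held neither. The 2 neighbours were thus mostly found in the same cells.

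Of the others, the 5 described here lay between 1.93 and 1.99 on the log2 scale, and in Kalrn, Trim45 and Gm32742 outer hair cells lay above both sets. Kalrn, the guanine nucleotide exchange factor kalirin, ran from 0 through 122.0 to 505.0 CPM with Ocm and from 0 through 2.48 to 243.3 CPM without. Its pooled levels were 128.1 and 32.2 CPM (1.99) against 366.0 CPM in outer hair cells, and it reached 10 CPM in 30 and 16 cells. By Ocm bin its median was 41.4 CPM with no Ocm read and 0.486 CPM with reads under 10 CPM, then 62.7 and 157.1 CPM, so its low values lay in cells with a little Ocm. Trim45, a RING finger protein, was at 202.8 and 51.02 CPM (1.99) against 504.6 CPM in outer hair cells, and Gm32742 at 84.8 and 21.8 CPM (1.96) against 383.1 CPM. Lrrc52, an auxiliary subunit of BK potassium channels, was at 145.0 and 38.1 CPM (1.93) against 87.6 CPM. Cdkn1a, the cell cycle inhibitor p21, was at 123.2 and 31.4 CPM (1.97), against 16.3 CPM in outer hair cells. All 5 lay between 1.79 and 2.48 in cells numbered 21 to 67, but in the 15 and 5 cells numbered 1 to 20 Trim45, Lrrc52 and Gm32742 lay at 0.43, 0.24 and 0.94. The median cell with Ocm held 11.3 CPM of Cdkn1a and the median cell without had no read.

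Ranked by pairs of cells instead, Chst2, Kalrn, Kncn, mt-Nd2 and Hsp90aa1 led, with the cell with Ocm higher in 82.6%, 82.4%, 81.6%, 81.4% and 81.0% of pairs. Chst2, a sulfotransferase of carbohydrate chains, ran from 85.1 through 647.9 to 3105 CPM with Ocm and from 0 through 247.3 to 862.6 CPM without, against a median of 909.4 CPM in outer hair cells. Its pooled log2 ratio was 1.37, with 1.18 in cells numbered 21 to 67 and 1.49 in cells 1 to 20, and the median cell with Ocm lay above the upper quartile of the cells without. Kncn, kinocilin, a protein of the hair cell apex, was at 1061 and 569.9 CPM (0.90), and the chaperone Hsp90aa1 at 2445 and 1709 CPM (0.52). The mitochondrial mt-Nd2, a subunit of respiratory complex I, was at 3881 and 1959 CPM (0.99), and 13 of 14 mitochondrial genes were higher, with a median of 0.44. The mt-Nd2 level follows the title numbers. In cells numbered 21 to 67 its medians were 2042 and 1584 CPM with and without Ocm, and in cells 1 to 20 they were 6511 and 5329 CPM. The log2 ratio of 0.99 was 0.48 within the former and 0.50 within the latter, and the median over the mitochondrial genes was 0.25 and 0.28. The difference was thus smaller within each block than over all cells, in the same direction. Cell 11, at 248.2 CPM of mt-Nd2, is 1 of the 5 cells without Ocm in cells 1 to 20, and the ratio there without it was not computed.

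**Figure D4:**
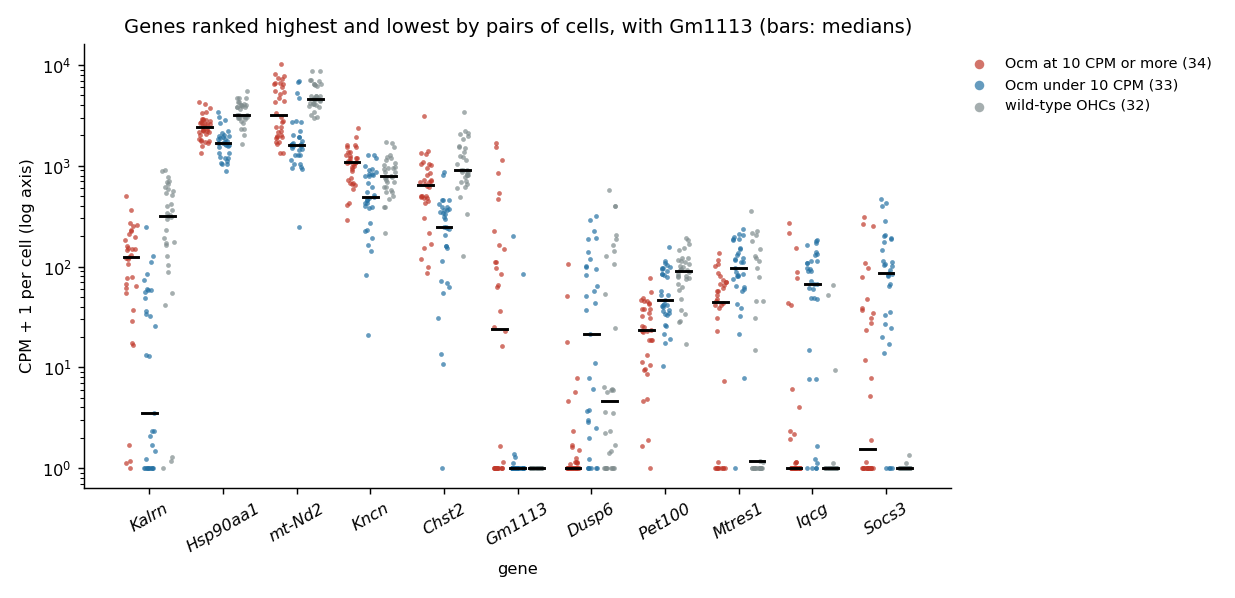
CPM + 1 per cell (log axis) of 11 genes named by rank in the 34 cells with Ocm, the 33 cells without and the 32 outer hair cells, 1 point per cell with the median marked. Chst2, Kalrn, Kncn, mt-Nd2 and Hsp90aa1 lie higher with Ocm than without, Pet100, Mtres1, Iqcg, Socs3 and Dusp6 lower, and Gm1113 has no read in outer hair cells.

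As the plot of ranked genes by cell shows, Chst2, Kalrn, mt-Nd2 and Hsp90aa1 stood nearer to outer hair cells in the cells with Ocm than without, and Gm1113 did not. Kncn, which also led by pairs, is not placed against outer hair cells here, and mt-Nd2 follows the title numbers. At the lower end, Dusp6, a phosphatase that switches off ERK, had the lowest ratio. It was at 5.598 CPM pooled with Ocm and 65.2 CPM without (log2 ratio -3.54, -3.62 to -3.47), and reached 10 CPM in 3 and 17 cells. In the cells with Ocm 58.99% of its counts came from 1 cell, and outer hair cells held 76.2 CPM. Next came Dpp7, a dipeptidyl peptidase (7.85 and 53.02 CPM, -2.76), the nuclear RNA Neat1 (28.5 and 119.9 CPM, -2.07) and Ldhb, lactate dehydrogenase B (32.3 and 134.7 CPM, -2.06), where 1 cell held 51.3% of the counts of Ldhb without Ocm. In cells numbered 21 to 67 Dpp7, Neat1 and Ldhb lay at -3.18, -2.38 and -2.02, but in cells 1 to 20 at -1.09, -0.66 and -0.72. Tmem64, Sh3bgrl, Rufy1 and Sh3yl1 lay between -1.72 and -1.65. In cells 1 to 20 Rufy1 lay at -0.23, and Tmem64, Sh3bgrl and Sh3yl1 at -2.38, -1.63 and -1.33. By pairs the lowest were Dusp6 (19.9%), Pet100 (20.0%), Mtres1 (20.1%), Iqcg (21.3%) and Socs3 (23.2%). Pet100, an assembly factor of cytochrome c oxidase, was at 25.8 and 60.9 CPM (-1.24), and Mtres1, a mitochondrial RNA-binding protein, at 48.9 and 107.9 CPM (-1.14). Iqcg was at 26.6 and 72.6 CPM (-1.45). Exons of Pet100 overlap those of Pcp2 and exons of Iqcg those of Lrch3. Socs3, an inhibitor of cytokine signalling, was at 48.1 and 124.0 CPM (-1.37), reached 10 CPM in 14 and 29 cells, and had 4 counts in all outer hair cells. Its log2 ratio was -0.84 in cells numbered 21 to 67 and -3.52 in cells 1 to 20.

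Early response genes, which cell dissociation can switch on, were mostly lower with Ocm. Of 9, 3 were higher and 6 lower, 2 of these (22.2%) at 2-fold or more (Ier2 and Hspa1a), near the background of 22.7%, with a median log2 ratio of -0.65. Junb ran from 0 through 223.1 to 998.0 CPM with Ocm and from 0 through 578.5 to 1425 CPM without. Its pooled levels were 328.4 and 637.8 CPM (-0.96), and the cell with Ocm was higher in 23.7% of pairs. The log2 ratio of Junb was -0.68 in cells numbered 21 to 67 and -1.30 in cells 1 to 20. Over all cells of a block its median was 486.2 CPM in the former and 207.3 CPM in the latter. Exons of Junb overlap those of Prdx2, which was near equal, at 592.0 and 629.2 CPM (-0.09). Fos was at 162.5 and 254.8 CPM (-0.65), Egr1 at 291.0 and 460.4 CPM (-0.66), Ier2 at 56.5 and 128.6 CPM (-1.19), and Jun at 507.6 and 614.6 CPM (-0.28). Within the blocks Fos differed less, at -0.46 in cells numbered 21 to 67 and -0.10 in cells 1 to 20. Atf3 went the other way, at 146.9 and 119.7 CPM (0.29), with 0.28 in cells numbered 21 to 67 but -1.05 in cells 1 to 20. The near-identical heat shock genes Hspa1a and Hspa1b gave -2.28 and 0.58, and reads may be split between them. Hspa1b lay at -0.55 in cells numbered 21 to 67 and at 1.33 in cells 1 to 20.

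Stress genes showed no common direction. Of 16, 7 were higher and 9 lower with Ocm, with a median log2 ratio of -0.07 (-0.33 in cells numbered 21 to 67 and -0.26 in cells 1 to 20), 1 at 2-fold or more higher (Cdkn1a) and 4 lower (25.00%, against 22.7% of all genes with a ratio). Among the 13 at 10 pooled CPM or more in 1 or both sets, 3 (23.1%) were lower by that much, against 7.45% of genes at that level. Higher was 1 (7.69%), against 5.12%. Chac1, a target of the integrated stress response, was at 5.10 and 31.3 CPM (-2.62), Hmox1, heme oxygenase, at 2.80 and 12.2 CPM (-2.13), and Gadd45b at 7.62 and 23.1 CPM (-1.60). Nqo1 had no count with Ocm and 573 without, at most -7.57 against the floor, but only 6.06% of the cells without Ocm had a read of it. The stress transcription factors Ddit3 and Atf4 were near equal, at 138.1 and 137.4 CPM (0.01) and 140.1 and 166.6 CPM (-0.25). Among these lower genes Chac1 reached 10 CPM in 3 cells with Ocm and 11 without, Hmox1 in 3 and 4, and Gadd45b in 5 and 6.

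Markers of most other cell types were low in both sets, apart from neurofilament genes and C1qb. Summed markers of supporting cells were at 5.68 CPM with Ocm and 43.1 CPM without, with 23 cells of each set at 0 and a highest cell at 56.1 and 873.6 CPM. The highest, cell 49, was without Ocm and is the cell that held most of the Ldhb counts of the cells without Ocm. Of their defining genes, Gjb6 and Slc1a3 had no count with Ocm, and Epyc and Prox1 none in either set. Glial markers summed to 8.12 and 8.25 CPM and fibrocyte markers to 20.6 and 22.8 CPM. The fibrocyte genes went apart, with log2 ratios of 2.71 for Col1a1, -10.2 for Col1a2 and -9.24 for Dcn. Col1a2 and Dcn each had reads in 3.03% of the cells without Ocm. Among cells without Ocm, cell 49 had the highest fibrocyte sum, 593.9 CPM. It also had the highest sum of the genes lost from outer hair cells, 3014 CPM. Blood and macrophage markers summed to 34.01 and 73.18 CPM, of which C1qb alone made up 29.5 and 66.9 CPM while C1qa had no count, and outer hair cells summed to 4.71 CPM. Neuronal markers summed to 314.1 and 286.0 CPM, against 73.1 CPM in outer hair cells, with no cell at 0, and nearly all of it came from the neurofilament genes Nefl and Nefm, whose exons overlap in the annotation. The part of these markers in the differences was not tested.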

How the data were processed

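The values analysed are whole-number read counts per gene symbol and cell, in 1 table deposited by the authors. Cells were picked singly, and full-length cDNA was made with the Smart-Seq HT kit and tagmented, per the labels' protocols. The submitters' processing notes name HISAT2 2.2.1, StringTie 2.2.1, featureCounts 2.0.1 and the mm10 build. Strand setting, annotation and read filters are not given in the sources used here. Columns were matched to cells by their titles, and no cell was left out. Of 55291 symbols, 28509 had no read. No 2 converted cells had identical columns, and over their counts the closest pair still differed by 183 in chi-square per degree of freedom, where sampling noise gives about 1.

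CPM, pooled CPM and log2 ratios were computed from the deposited counts with Python 3.11.15, numpy 2.4.6, pandas 2.3.3 and scipy 1.17.1. Pooled levels have exact Poisson, ratios exact conditional binomial and shares Clopper-Pearson intervals. With both sums at or under 3 counts no ratio was given, and otherwise a sum under 3 counts was set to 3 counts over the set. Genes were named as the 8 highest and 8 lowest ratios and the 5 highest and 5 lowest pair shares, with the filters given in the text, plus Tbx2, the gene lists, and the 5 most abundant of each set lost or gained. The members and lists were chosen with earlier results of these data known. Values of some genes of the lists and ranks are not reported here. The ratio step was tested on simulated counts. Exon overlaps came from GENCODE M21, which holds 96.4% of the symbols and need not be the annotation used for counting.

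Alternatives were other Ocm levels for the split, per-cell means or medians, dropping each gene's highest cell, cells of 1 sex mark, cells in the middle of the number of genes with reads, TMM (edgeR 4.0.16 in R 4.3.3), size factors by median of ratios, totals lacking mitochondrial genes and Ocm, thinning, and other filters on low values. Added after seeing the data were leaving out the cells highest in Ocm (the top cell alone, and the 5 cells at 1000 CPM or more) and using only the cells titled 21 to 67 or 1 to 20.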

Additional observations from a re-analysis of the deposited data

How the results depend on the processing

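The log2 ratio of Tbx2, -0.99 in the report, stayed negative in every alternative run. It was -0.38 for any Ocm read against none, -1.18 for 100 CPM or more against less, and -1.05 for 20 CPM or more against under 5 CPM. It was -0.74 from medians per cell, -0.96 without the highest cell of each gene, -1.04 and -1.05 in cells with Xist or Y-linked reads, and -0.92 in the middle cells by genes with reads (14 and 19 cells). Scaling gave -0.91 (TMM), -0.92 (median of ratios) and -0.97 (totals without mitochondrial genes and Ocm), thinning -1.06, and leaving out the cell or the 5 cells highest in Ocm -0.97 and -0.90. It was -0.93 in cells titled 21 to 67 and -1.11 in cells 1 to 20 (15 and 5 cells).

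The outer hair cell list's median, 0.12, stayed positive, at 0.19 for the 100 CPM split, 0.073 for 20 against 5 CPM, 0.15 from medians per cell and 0.15 without the highest cell of each gene, 0.87 in cells with Y-linked reads, 0.45 in the middle cells, 0.20 under TMM, 0.19 under median of ratios 0.46 in cells 1 to 20 and 0.16 without the 5 cells. The inner hair cell list's median, 0.06, was 0.011 for any read, 0.11 and 0.10 for the 100 CPM and 20 against 5 CPM splits, 0.045 and 0.030 from means and medians per cell, 0.074 without the highest cell of each gene, 0.099 and 0.051 in cells with Xist or Y-linked reads, 0.082 in the middle cells, 0.14 under TMM, 0.14 under median of ratios, 0.085 with the reduced totals, 0.042 after thinning, 0.13 in cells 21 to 67, 0.24 in cells 1 to 20 and -0.068 without the 5 cells. The median of the genes lost from outer hair cells ran from 0.30 to 1.63 and that of the genes gained from -0.39 to -0.060.

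The count of genes 2-fold or more higher, 499, was 2089 in cells with Y-linked reads, 868 in the middle cells, 1643 in cells 1 to 20, 2229 at 1 CPM or more and 4329 with no filter. The count lower, 725, was 2209, 1182, 1745, 2678 and 4965 under these and 1209 for the 100 CPM split. Sets with fewer cells or genes with fewer reads pass a 2-fold limit more often by construction. Of 57 named genes at 2-fold or more, 45 kept their direction in all 17 alternatives with other cells or scaling that gave a value. Turned round were Atp8b1 (0.045) and Fgfr3 (0.24) at the 100 CPM split, Gadd45b (2.36), Sh3yl1 (0.49), Shisa2 (0.24) and Tnfaip1 (0.19) for any read, Gadd45b (0.84), Il17re (0.10) and Lbh (-6.43) in the middle cells, and Gm13394 (1.24), Il17re (0.60), Mbp (0.95) and Nefh (1.51) in cells with Y-linked reads. Cdon (-0.21), Gm13394 (0.28), Il17re (0.82), Mbp (0.83) and Nefh (1.38) did so in cells 1 to 20. The cause was not tested. No paired analysis was possible because both sets come from 1 group, within which each title number stands for 1 cell.

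With 1 sample, the spread between animals is unknown. Depth limits the genes under a few CPM: by the Clopper-Pearson interval, 0 of 34 cells with a read allows a share of up to 10.28%, and 0 of 33 up to 10.6%.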

Other observations

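Cells with Gm1113 at 10 CPM or more and cells low in Calb1 were partly the same. Among the 34 cells with Ocm, 9 of the 19 with Gm1113 had Calb1 under 1000 CPM, against 3 of the 15 others. Among the 33 cells without Ocm, none of the 2 with Gm1113 and 4 of the 31 others had Calb1 that low. This was looked at after the values were seen and was not tested.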
